A study of Mus musculus with 6 samples.

Results

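The genes described are 10 genes of TGF-beta and activin signalling: the ligand genes Tgfb1, Tgfb2 and Tgfb3, the receptor genes Tgfbr1, Tgfbr2 and Tgfbr3, the activin subunit genes Inhba and Inhbb, the activin inhibitor gene Fst and the activin receptor gene Acvr2a. They were found by symbol among the 55055 genes of the deposited table, and all 10 had enough counts to be tested. The set was chosen by pathway and with the measured levels of Tgfb2 (higher in knockout) and Inhba (lower) known. The differences between genotypes are therefore given as a description of these genes, their calls are given only as counts, and no support is drawn from them.

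RNA of pregnant mice was sequenced from myometrium, the muscular wall of the uterus, labelled E19.5 in the samples and gestational day 19 in the series design. The groups were 3 wild-type animals (TCF23 WT) and 3 TCF23 knockout animals (TCF23 KO), from a line made with CRISPR/Cas9, with 1 library per animal. No treatment is named for either group, and strain, maternal age, the edited allele and the tissues that carry it are not stated in the labels. The question is what loss of Tcf23, a basic helix-loop-helix factor, changes in muscle that must contract at birth.

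TGF-beta ligands are secreted in a latent form and bind a pair of receptor kinases, and activins, dimers of inhibin beta subunits, bind a related pair. Both receptor pairs phosphorylate SMAD2 and SMAD3, which enter the nucleus with SMAD4 and regulate genes of matrix, growth and differentiation. Follistatin binds activins and keeps them from their receptors. In the uterus these ligands take part in implantation, stromal differentiation and the remodelling of matrix.

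Libraries held 39939686 to 65036402 counts. Counts of Tcf23 were 3360 to 5970 per wild-type library, against 0, 2 and 1 for knockout replicates 1, 2 and 3. Over all 19599 genes tested, edgeR's quasi-likelihood test called 0 genes higher and 4 lower at an adjusted p under 0.05. With the replicate number as a block it called 2 higher and 5 lower. Smooth muscle markers (9 genes, Des, Myh11 and Acta2 among them) were abundant in every library, with sums of 26666 to 31412 CPM (library-scaled counts, the unit used below for levels) in wild-type. They were uneven among knockouts, at 33591, 38149 and 14949 CPM in replicates 1, 2 and 3. Uterine epithelial markers (8 genes) were also present, at 2030 to 4672 CPM in wild-type and 2287 to 5649 CPM in knockout.

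Tgfb2 was the member with the largest difference, about 3 times higher in knockout myometrium, and Inhba had a fitted level 2.46 times lower there. Tgfb2 and Inhba separated the genotypes with no overlap between libraries, as did Inhbb and Tgfbr1 by narrow margins, both lower in knockout. The other 6 genes overlapped. Non-overlapping groups were therefore found for 4 of the 10 genes, 1 higher and 3 lower, where 14.2% of all genes tested showed them (7.22% higher and 7.01% lower). Nothing is read from that count, since the contrast took part in choosing the genes.

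**Figure D1:**
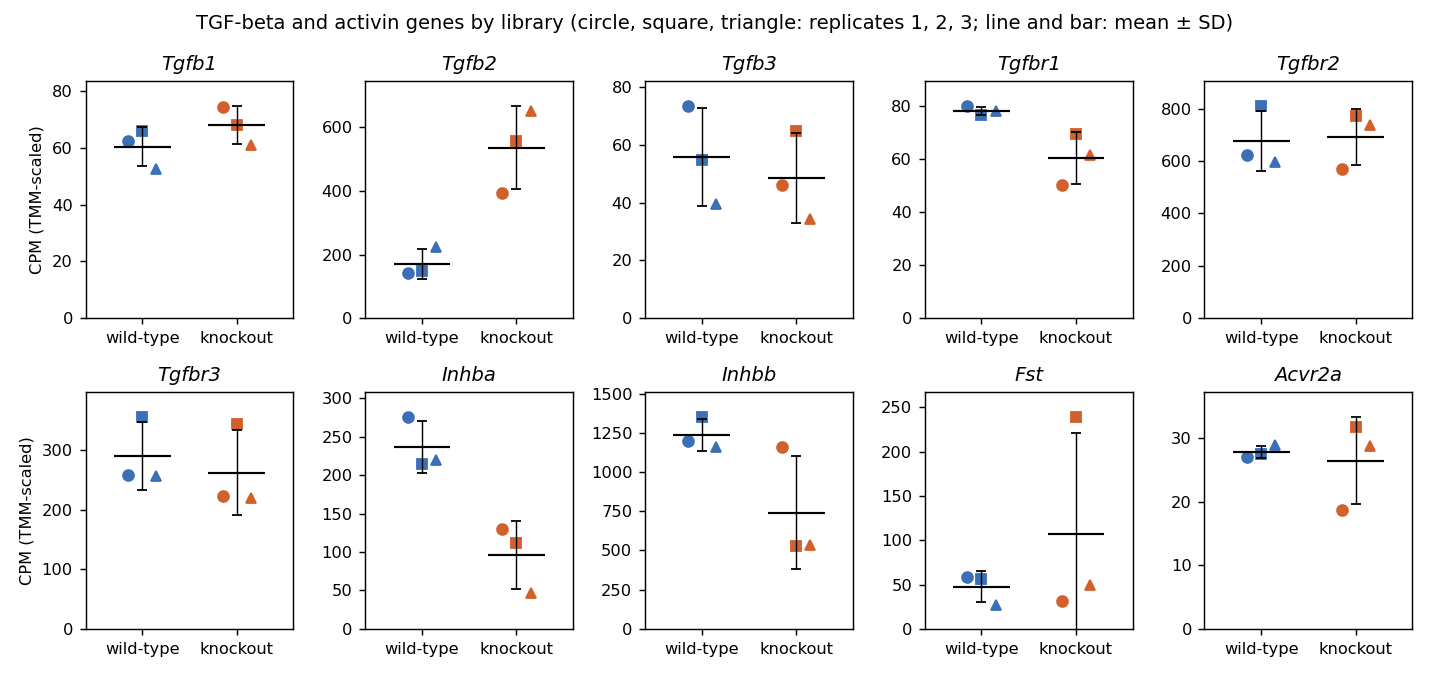
Level of each gene in each library, in TMM-scaled CPM on linear axes that start at 0, with the mean and SD of 3 libraries per genotype (the lower bar of Fst in knockout runs below 0 and is not drawn there). Tgfb2 is higher and Inhba lower in every knockout library, while the high mean of Fst comes from knockout replicate 2.

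Among the ligand genes, Tgfb2 (ENSMUSG00000039239, mm10 chromosome 1, 186622792 to 186705989, minus strand) encodes TGF-beta 2. It had 140.7, 147.6 and 223.5 CPM in wild-type replicates 1, 2 and 3, and 395.1, 558.7 and 652.7 CPM in knockout replicates 1, 2 and 3. The lowest knockout library was 1.77 times the highest wild-type library. The means were 170.6 ± 45.9 CPM in wild-type and 535.5 ± 130 in knockout (SD, n = 3 per genotype), a fitted log2 change of 1.65 ± 0.26 (standard error), or 3.14-fold. Within each genotype replicate 3 was the highest. Replicate 3 was also the highest of each genotype in summed epithelial markers, at 4672 CPM in wild-type and 5649 CPM in knockout. The epithelial sums overlapped between genotypes, and their part in the level of Tgfb2 was not tested. Without knockout replicate 3 the log2 change of Tgfb2 was 1.48, and without wild-type replicate 3 it was 1.89. In bulk tissue, a different number of cells of a type and a different amount of RNA per cell cannot be told apart.

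The other TGF-beta ligand genes differed little. Tgfb1 encodes the isoform best known from immune cells and platelets, and had 62.6, 66.0 and 52.7 CPM in wild-type and 74.6, 68.0 and 61.2 CPM in knockout. Its groups overlapped, with a log2 change of 0.17 ± 0.14. Tgfb3 had 73.3, 54.6 and 39.6 CPM in wild-type and 46.2, 64.9 and 34.4 CPM in knockout. Its libraries varied more within than between genotypes, and its log2 change was −0.20 ± 0.29, turning to 0.05 without wild-type replicate 1. Of the annotated exon length of Tgfb3, 12.4% overlaps genes on the opposite strand, so part of its reads may have been counted elsewhere or dropped.

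Divided by exon length, the 3 ligand genes can be compared with each other. Summed, they came to 58.4, 54.7 and 60.8 CPM per kb in wild-type and to 96.7, 129.2 and 135.0 CPM per kb in knockout, groups that do not overlap. Tgfb2 made up 50.6% ± 11.5 of that sum in wild-type and 76.3% ± 6.59 in knockout. The share of Tgfb1 was 20.8% ± 3.38 and 11.6% ± 3.31, and that of Tgfb3 28.6% ± 8.94 and 12.2% ± 4.04. None of the 3 shares overlapped between genotypes, while the levels of Tgfb1 and Tgfb3 did. Mean Tgfb1 was 12.0 CPM per kb in wild-type and 13.5 in knockout, and mean Tgfb3 was 16.5 and 14.3. As the shares add up to a fixed total, a higher Tgfb2 alone lowers the shares of Tgfb1 and Tgfb3. The separation of the sum and of the 3 shares therefore largely restates the difference in Tgfb2, and is not counted as a further result.

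**Figure D2:**
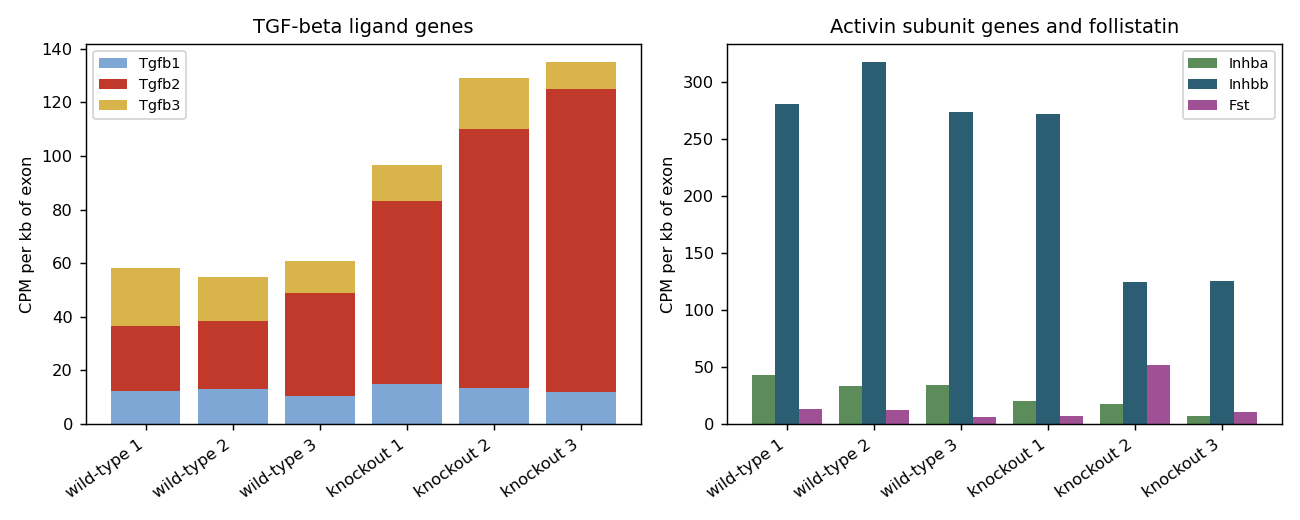
Level of ligand and inhibitor genes in each library, in TMM-scaled CPM per kb of annotated exon, as stacked bars for Tgfb1, Tgfb2 and Tgfb3 (left) and side-by-side bars for Inhba, Inhbb and Fst (right). Stacked sums are 54.7 to 60.8 in wild-type and 96.7 to 135.0 in knockout, and Inhbb is the tallest bar on the right in each library.

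The activin subunit genes were lower in knockout, to different degrees. Inhba (ENSMUSG00000041324, mm10 chromosome 13, 16011851 to 16031621, plus strand) encodes the beta A subunit of activin A. It had 275.7, 215.2 and 219.5 CPM in wild-type replicates 1, 2 and 3 and 130.6, 111.6 and 46.5 CPM in knockout replicates 1, 2 and 3. Each knockout library was below each wild-type library, and the lowest wild-type library was 1.65 times the highest knockout library. The means were 236.8 ± 33.7 and 96.3 ± 44.1 CPM, a log2 change of −1.30 ± 0.36, so that the fitted wild-type level was 2.46 times that of knockout. Knockout replicate 3, with the lowest Inhba, also had the lowest summed smooth muscle markers (14949 CPM). Without it the log2 change was −0.97. The smooth muscle sums of knockout replicates 1 and 2 were above those of the wild-type libraries, and the part of muscle content in the level of Inhba was not tested.

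Inhbb, which encodes the beta B subunit of activin B, had the highest mean CPM of the 10 genes in both genotypes, although Tgfbr2 and Tgfb2 exceeded it in knockout replicates 2 and 3. It had 1195, 1349 and 1162 CPM in wild-type replicates 1, 2 and 3 and 1157, 529.0 and 533.3 CPM in knockout replicates 1, 2 and 3. Knockout replicate 1 sat just under the wild-type libraries, while knockout replicates 2 and 3 were far lower. The groups thus missed overlapping by a factor of 1.004, and the log2 change of −0.74 ± 0.32 became −1.21 without knockout replicate 1 and −0.54 without knockout replicate 2. Knockout replicate 1 also stood apart in summed placental and fetal membrane markers (12 genes), with 298.1 CPM against 34.4 to 43.0 CPM in wild-type and 45.3 and 4.49 CPM in knockout replicates 2 and 3. Of the 298.1 CPM, 243.7 CPM was Tpbpa. Among the 10 tested markers of that list, 5 had positive and 5 negative log2 changes. The part of placental RNA in the Inhbb level of knockout replicate 1 was not tested. Inhbb made up 88.6% ± 1.87 of the summed activin subunit level per kb in wild-type and 91.7% ± 3.59 in knockout.

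Follistatin, encoded by Fst, showed 1 library far from the rest. It had 58.8, 56.8 and 27.5 CPM in wild-type and 31.3, 238.8 and 49.7 CPM in knockout replicates 1, 2 and 3. Knockout replicate 2 was about 4 times the highest of the other 5 libraries, and replicates 1 and 3 lay within the wild-type range. The log2 change of 1.16 ± 0.73 therefore rested on that library, and was −0.23 without it. Knockout replicate 2 also had the highest smooth muscle sum (38149 CPM, against 33591 CPM in knockout replicate 1), whose part in its Fst level was not tested. Per kb, its ratio of activin subunits (Inhba plus Inhbb) to Fst was the lowest, 2.72. Its high Fst is the divisor of that ratio. The subunit sums of knockout replicates 2 and 3 were close, at 141.8 and 132.6 CPM per kb. The ratio was 42.8 and 12.2 in knockout replicates 1 and 3 and 25.3 to 51.3 in wild-type.

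Among the receptor genes, Tgfbr1, the type I receptor kinase gene, had 79.7, 76.4 and 77.9 CPM in wild-type and 50.2, 69.5 and 61.4 CPM in knockout. The wild-type libraries were close together and the knockout libraries all lower, by a log2 change of −0.37 ± 0.15. Tgfbr2, the type II receptor gene that binds ligand first, had 623.3, 808.9 and 596.7 CPM in wild-type and 570.5, 770.7 and 738.3 CPM in knockout, overlapping, with a log2 change of 0.04 ± 0.20. Tgfbr3 encodes betaglycan, a co-receptor that presents TGF-beta 2 to the type II receptor and helps inhibin to antagonise activin. It had 258.7, 355.5 and 256.5 CPM in wild-type and 222.9, 344.1 and 220.3 CPM in knockout, with replicate 2 the highest in both genotypes and a log2 change of −0.15 ± 0.23. Acvr2a, an activin type II receptor gene, had 27.03, 27.5 and 29.0 CPM in wild-type and 18.8, 31.8 and 28.9 CPM in knockout. Its 3 wild-type libraries lay inside the range of the knockout ones, and its log2 change was −0.07 ± 0.20.

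**Figure D3:**
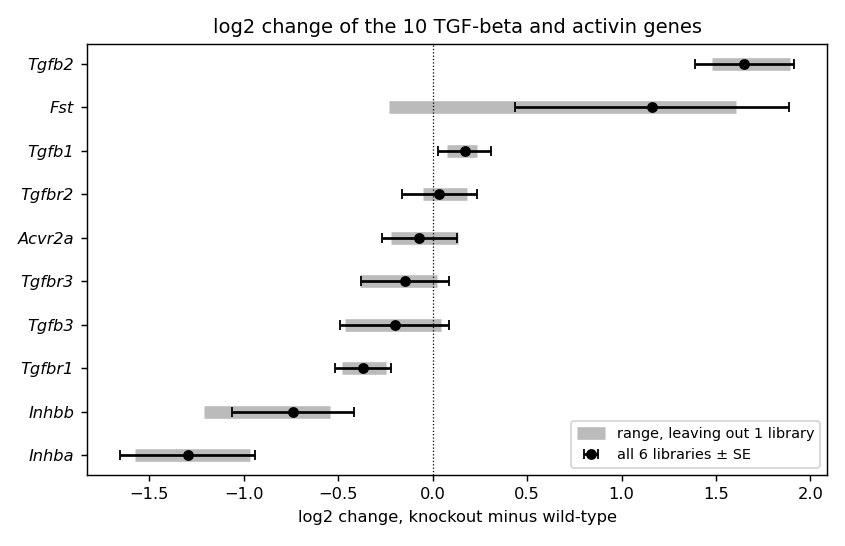
Fitted log2 change of each gene, knockout minus wild-type, with its standard error (black) and the range of the same value when any 1 library is left out (grey). The range of Tgfb2 stays within 1.48 to 1.89 and that of Inhba within −1.58 to −0.97, whereas Fst runs from −0.23 to 1.604 and crosses 0.

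In edgeR, 0 of the 10 genes passed an adjusted p under 0.05, where 0.0204% of all genes tested did. At an unadjusted p under 0.05 there were 3 (Tgfb2 higher, Inhba and Tgfbr1 lower), where 8.56% of all genes were. limma-voom called 0 of the 10 (0.0204% of all genes), and DESeq2 called Tgfb2 higher and Inhba lower (1.84% of all genes). As the contrast took part in choosing these genes, the calls are given only as counts. Replicate numbers may pair the animals. Within those pairs Tgfb2 was higher in knockout by 1.49, 1.92 and 1.55 on the log2 scale for numbers 1, 2 and 3, and Inhba had log2 differences of −1.08, −0.95 and −2.24. For Inhbb the pair differences were −0.05, −1.35 and −1.12, and for Fst −0.91, 2.07 and 0.85, with no common sign.

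Per kb of exon, the order of levels in wild-type myometrium began with Inhbb (290.3 ± 23.6 CPM per kb) and Tgfbr2 (82.6 ± 14.1). These 2 were clear of each other and of the rest. Tgfbr3 (44.3 ± 8.64), Inhba (37.1 ± 5.28) and Tgfb2 (29.5 ± 7.93) followed, each overlapping its neighbour. Tgfb3 (16.5 ± 4.98), Tgfb1 (12.0 ± 1.37), Tgfbr1 (11.9 ± 0.257) and Fst (10.4 ± 3.82) formed a further overlapping group, and Acvr2a (4.90 ± 0.176) was the lowest. In knockout, Tgfb2 (92.5 ± 22.5 CPM per kb) stood second after Inhbb (174 ± 84.8) and overlapped Tgfbr2 (84.7 ± 13.1). Inhba (15.1 ± 6.90) stood sixth there, overlapping Fst (23.2 ± 25.03) and Tgfb3 (14.3 ± 4.56).

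The spread between animals differed by genotype for several of these genes. The coefficient of variation of Inhbb was 8.12% in wild-type and 48.8% in knockout, that of Inhba 14.2% and 45.8%, and that of Acvr2a 3.59% and 25.9%. For Tgfb2 it was 26.9% and 24.3%. Over the 10156 tested genes with a mean of at least 10 CPM the median was 8.02% in wild-type and 17.3% in knockout, so a wider spread in knockout was common over genes.

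The sequence before the start of the main ligand genes with a difference is shown here, because many basic helix-loop-helix proteins bind the E-box CANNTG. Tcf23 itself has been described as an inhibitor of such binding by its partners. RefSeq promoters (GRCm38.p6) were listed for 7 of the 10 genes. The 250 bases before each start are given 5′ to 3′ on the gene's strand, with capitals for matches on either strand to CANNTG, its form CACGTG, the SMAD-type element CAGAC, the CREB-type half-site TGACG and TATAAA. They lie at chr1:186705990-186706239 (minus strand) for Tgfb2, chr13:16011601-16011850 (plus strand) for Inhba and chr1:119422249-119422498 (minus strand) for Inhbb.
Tgfb2: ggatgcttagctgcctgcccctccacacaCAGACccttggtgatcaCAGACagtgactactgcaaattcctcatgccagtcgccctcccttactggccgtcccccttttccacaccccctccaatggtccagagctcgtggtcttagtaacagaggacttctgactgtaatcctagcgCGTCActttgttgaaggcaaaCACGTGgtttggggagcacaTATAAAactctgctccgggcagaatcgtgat
Inhba: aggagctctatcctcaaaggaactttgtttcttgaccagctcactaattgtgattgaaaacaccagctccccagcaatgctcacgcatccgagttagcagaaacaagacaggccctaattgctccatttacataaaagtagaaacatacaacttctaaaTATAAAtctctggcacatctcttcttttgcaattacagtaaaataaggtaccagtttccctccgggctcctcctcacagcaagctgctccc
Inhbb: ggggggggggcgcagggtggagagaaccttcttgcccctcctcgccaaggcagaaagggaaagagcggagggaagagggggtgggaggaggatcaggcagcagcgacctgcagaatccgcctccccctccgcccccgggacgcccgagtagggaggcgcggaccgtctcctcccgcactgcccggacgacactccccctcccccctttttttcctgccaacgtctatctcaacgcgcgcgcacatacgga

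The Tgfb2 window held 1 CACGTG, which is also its 1 match to CANNTG, beginning 51 bases before the start. It also held CAGAC at 221 and 204 bases, TGACG (as its reverse complement CGTCA) at 72 and TATAAA at 31 bases before the start. The Inhba window held TATAAA at 91 bases and none of the other 4 motifs, and the Inhbb window held none of the 5. Of 32851 RefSeq promoters, 66.2% hold CANNTG in the same window, 6.02% CACGTG, 42.2% CAGAC, 17.8% TGACG and 12.4% TATAAA. Among the 7 listed genes, CANNTG was found in 1, CAGAC in 3, TGACG in 1 and TATAAA in 2. Base composition differed between the activin subunit genes: the Inhba window was 43.2% G and C with 3 CpG, and the Inhbb window 68.0% with 21 CpG, beside a median of 52.4% over all promoters. A match describes the letters of the window and is no measure of binding.

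Other genes of the pathway were taken from 5 lists. Of 55 genes listed beside the 10, 50 were tested. Inhbc and Inhbe had 0 counts in every library, and Mstn, Tdgf1 and Acvr1c, the gene of the type I receptor ALK7, had at most 7 counts in any library. In edgeR 0 of the 50 were higher and 0 lower at an adjusted p under 0.05. At an unadjusted p under 0.05, 2 were higher and 5 lower, where 5.27% and 3.29% of all genes were. DESeq2 called 1 lower (1.84% of all genes in either direction), and limma-voom called 0 (0.0204%). Their median log2 change was −0.06, beside 0.01 for all genes tested. Of the 50, 16 changes were positive and 34 negative, beside 10207 and 9392 of all 19599 genes tested.

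Of the 12 genes that hold TGF-beta latent or release it, 3 had positive and 9 negative log2 changes (median −0.04), and 2 had non-overlapping groups, both lower (7.01% of all genes tested). Thbs1, whose thrombospondin-1 can release active TGF-beta, had 1511, 965.5 and 1041 CPM in wild-type and 254.1, 757.8 and 189.1 CPM in knockout replicates 1, 2 and 3. Its log2 change was −1.55 ± 0.52 (adjusted p = 0.435 in edgeR and 0.0406 in DESeq2). Ltbp1, a latent TGF-beta binding protein gene, had 323.8, 208.6 and 206.9 CPM in wild-type and 99.2, 165.0 and 59.3 CPM in knockout, a log2 change of −1.19 ± 0.37 (edgeR adjusted p = 0.409). For both genes every knockout library was below every wild-type one. In both, knockout replicate 2 was the highest of its group and replicate 3 the lowest, as in summed smooth muscle markers. Those sums were 33591 and 38149 CPM in knockout replicates 1 and 2, above the 26666 to 31412 CPM of wild-type. The part of muscle content in Thbs1 and Ltbp1 was not tested. Ltbp4 and Itgav, the alpha V integrin gene, each had a log2 change of −0.37, with overlapping groups.

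Among SMAD genes and their regulators, 13 of 14 log2 changes were negative and 1 positive (median −0.19, beside 0.01 for all genes tested). Of all 19599 genes tested, 9392 were negative. Several of the 13 changes were smaller than their standard errors. Non-overlapping groups were found for 4 genes, each lower in knockout (Skil, Smurf2, Trim33 and Ppm1a), where 7.01% of all genes tested were lower without overlap. Trim33 and Ppm1a were apart by narrow margins. Their highest knockout libraries had 41.2 and 86.7 CPM, and their lowest wild-type libraries 42.3 and 88.5 CPM. Skil, a repressor of SMAD activity that TGF-beta itself induces, had 84.2, 77.8 and 91.5 CPM in wild-type and 44.2, 57.3 and 70.2 CPM in knockout (log2 −0.56 ± 0.18, edgeR adjusted p = 0.423). Smurf2, a ubiquitin ligase gene of the pathway, averaged 100.8 ± 4.37 and 77.4 ± 13.7 CPM (wild-type, then knockout) (log2 −0.38 ± 0.16, edgeR adjusted p = 0.559). Smad7, the inhibitory SMAD, and Tgif1, a co-repressor, had log2 changes of −0.29 ± 0.15 and −0.37 ± 0.19. Each of these differences was small beside that of Tgfb2, and none of the 14 passed over all genes.

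Genes known as TGF-beta targets did not move together: 6 of 16 log2 changes were positive and 10 negative, with a median of −0.06. Ccn2, a matricellular growth factor gene, had 338.7, 223.3 and 312.1 CPM in wild-type and 193.7, 229.8 and 104.4 CPM in knockout (log2 −0.73 ± 0.30, edgeR adjusted p = 0.567), with overlapping groups. Of its annotated exon length, 23.2% overlaps a gene on the opposite strand. That share was larger for Tagln (67.9%) and Ldlrad4 (52.1%) on this list, and for Tgif2 (61.6%) among the SMAD regulators. Fn1, the fibronectin gene, had 18680, 16101 and 15795 CPM in wild-type and 9140, 15261 and 4148 CPM in knockout (log2 −0.82 ± 0.45, edgeR adjusted p = 0.705). Its knockout libraries were all lower and took the order of Thbs1, with replicate 2 highest in knockout. Smad7, Skil and Pmepa1 are on both this list and that of SMADs and their regulators.

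Of the other receptors and co-receptors, 5 of 7 were tested, 1 positive and 4 negative. Acvrl1, the type I receptor gene ALK1 of endothelium, averaged 66.7 ± 5.06 CPM (wild-type) and 84.5 ± 10.7 CPM (knockout), without overlap (log2 0.34 ± 0.14, edgeR adjusted p = 0.558). Acvr1, Eng and Acvr2b had log2 changes of −0.15 ± 0.12, −0.10 ± 0.19 and −0.13 ± 0.31. Of 6 tested genes for other activin-type ligands and inhibitors, 5 were positive and 1 negative. Bambi, a decoy receptor without a kinase, had 5.29, 5.68 and 5.03 CPM in wild-type and 7.04, 8.15 and 9.10 CPM in knockout, each library higher (log2 0.60 ± 0.17, edgeR adjusted p = 0.373). Dcn, whose decorin binds TGF-beta in matrix, averaged 3304 ± 500.1 CPM (wild-type) and 2467 ± 216 CPM (knockout) without overlap (log2 −0.42 ± 0.20, edgeR adjusted p = 0.64). Fstl3, a follistatin-like activin binder, and Gdf11, an activin-type ligand, had log2 changes of 0.59 ± 0.31 and 0.26 ± 0.18. Of the annotated exon length of Fstl3, 47.3% overlaps a gene on the opposite strand, and the strand option of the counting is not stated. The value of Fstl3 was 0.17 without knockout replicate 2, the library with high Fst, where Fstl3 had 17.1 CPM against 8.47 and 8.46 in replicates 1 and 3.

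**Figure D4:**
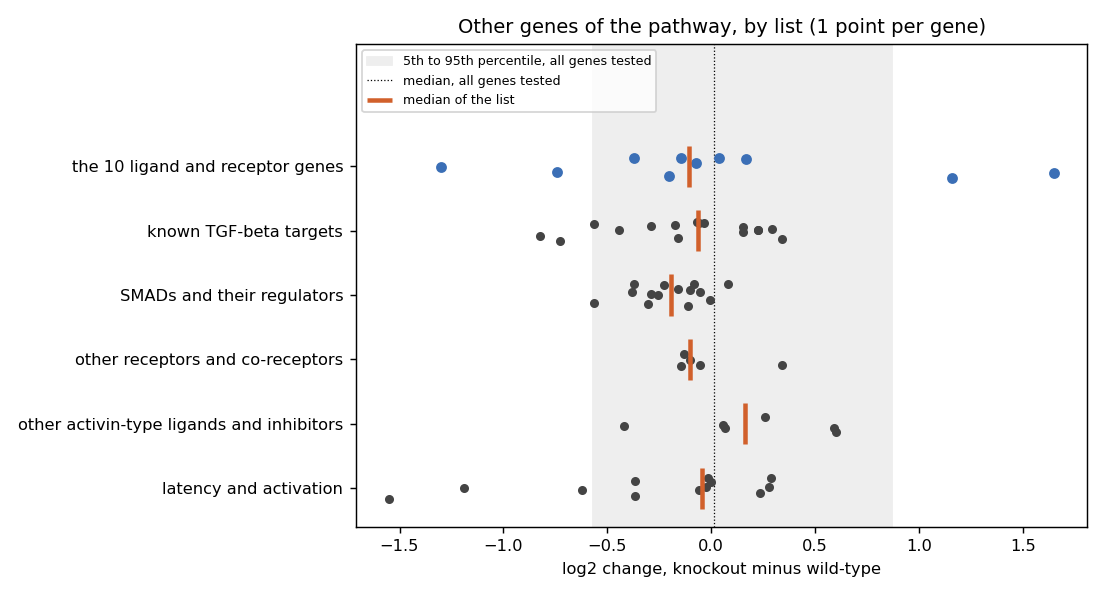
Log2 change, knockout minus wild-type, of each tested gene in 5 lists of other pathway genes and of the 10 ligand and receptor genes, with list medians (orange) and the 5th to 95th percentile of all genes tested (−0.57 to 0.87, grey). Thbs1 and Ltbp1 lie at −1.55 and −1.19, and 13 of 14 genes for SMADs and their regulators lie below 0, beside 9392 of all 19599 genes tested.

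Over the 6 libraries, the tested genes of at least 10 CPM that followed Tgfb2 most closely in log2 CPM were Bmp3 (Pearson r = 0.991), Cx3cr1 (r = 0.988) and Cnnm2 (r = 0.98). Bmp3, a growth factor gene, had 6.69, 6.98 and 9.31 CPM in wild-type and 19.7, 24.8 and 24.9 CPM in knockout. For Inhba they were Rbm39 (r = 0.999), Tmem200a (r = 0.991) and Fez1 (r = 0.99). Rbm39 shared the order of the libraries but little of the size, at 220 ± 5.66 CPM in wild-type and 189 ± 17.8 in knockout. These are the closest of 10155 genes over 6 libraries that share the genotype difference, and are a description only.

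Marker sums separated the genotypes for 3 lists. Summed neutrophil markers (6 genes, 4 tested, all 4 positive) were 6.62 to 10.9 CPM in wild-type and 19.3 to 30.5 CPM in knockout, and natural killer and T cell markers (7 of 7 positive) 5.38 to 7.24 and 11.7 to 18.8 CPM. Both were higher in knockout, as was Tgfb2, and their part in its difference was not tested. Both sums were largest in knockout replicate 1, where Tgfb2 was the lowest of the knockout libraries. Summed decidual markers (8 genes) were 1213 to 1385 CPM in wild-type and 1052 to 1144 in knockout, most of it Htra3. Of the 7 tested, 6 had positive log2 changes and 1, Htra3, a negative one (median 0.17), and Prl8a2, a decidual prolactin gene, was 3.72 to 16.6 and 23.0 to 81.2 CPM. Sums for macrophages, endothelium and fibroblasts overlapped between genotypes. The mesothelial sum (5 genes) overlapped too, most of it Krt19, which is also on the epithelial list. Of its 5 markers 4 had negative log2 changes (median −1.58). Msln, the mesothelin gene, was 41.7 to 73.4 CPM in wild-type and 14.0 to 28.1 CPM in knockout, the only 1 of the 5 without overlap. For Upk3b and Lrrn4, wild-type replicate 3 (2.94 and 0.785 CPM) lay within the knockout range (2.38 to 5.73 and 0.451 to 1.78 CPM).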

How the data were processed

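Poly(A)-selected, directional libraries were made from myometrial RNA, per the labels' protocols. The authors deposited raw counts by Ensembl gene, 1 file per library, and a table of normalized signal that equals the counts times 1 constant per library (0.804 to 1.26, checked on the values). The submitters' processing notes name HISAT2 2.2.1, HTSeq 0.9.1, DESeq2 2.11.40.7 and mm10, with no role. Which gene annotation and which strand option the counting used is not stated there.

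edgeR 4.0.16 under R 4.3.3 was run on the deposited counts (filterByExpr, TMM, quasi-likelihood fit on genotype, Benjamini-Hochberg adjustment over 19599 genes). The pipeline was also run on simulated counts, drawn independently for each library with no pairing, and no result here rests on that run. CPM are relative to TMM-scaled library sizes. Exon lengths are unions of GENCODE M21 exons, found for 54804 of 55055 genes. Start positions in the deposited table count from 0 and are printed from 1.

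The 10 genes and the lists were chosen with earlier results of these data known. From each pathway list the text names genes past the threshold and up to 4 others with the smallest p at a mean of at least 1 CPM. It also names the 3 genes most correlated with Tgfb2 and with Inhba. Genes named beside non-overlapping groups (Trim33, Ppm1a), Inhbc, Inhbe, Mstn, Tdgf1 and Acvr1c were chosen after their values were seen. So were Pmepa1, Tagln, Ldlrad4 and Tgif2, and the marker genes Tpbpa, Prl8a2, Htra3, Msln, Upk3b, Lrrn4 and Krt19.

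Same-numbered libraries of the genotypes deviated together from their group means (correlations across genes of 0.147, 0.196 and 0.217, others −0.223 to 0.061), so the numbers may pair the animals. The labels do not say what a number marks. The main fit was therefore on genotype only, and its standard errors and p-values take no account of a pairing. Alternatives were RLE and upper-quartile scaling, other filters, DESeq2 1.42.0, limma-voom (limma 3.58.1), limma on log2 of the deposited values plus 1, the replicate block and leaving out each library.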

Additional observations from a re-analysis of the deposited data

How the results depend on the processing

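The log2 changes of Tgfb2, Tgfb1, Inhba, Inhbb and Tgfbr1 kept their sign in all 8 other fits and with any 1 library left out, while those of Fst, Tgfb3, Tgfbr2, Tgfbr3 and Acvr2a changed sign when 1 library was left out. Over the 8 other fits, Tgfb2 lay between 1.64 and 1.68 and Inhba between −1.44 and −1.26. Of the 10 genes, DESeq2 called 1 higher and 1 lower (1.84% of 20596 genes over all, in either direction). Without a filter on low counts edgeR called 1 higher, Tgfb2 (0.23% of 35229 genes over all, in either direction). Of the other pathway genes DESeq2 called 1 lower, Thbs1. Over all genes, calls (higher and lower) were 4 and 8 with upper-quartile scaling, 47 and 34 with no filter, 245 and 133 with DESeq2 and 2 and 5 with the replicate block. The cause was not tested. The replicate block changed no call among the 10 genes or the other pathway genes. Leaving out 1 library gave 0 to 3 higher and 1 to 4 lower. With 1 library left out the log2 change ranged from −0.333 to 0.149 for Acvr2b (positive without knockout replicate 1) and from −0.202 to 0.0679 for Eng (positive without knockout replicate 3). Levels per kb moved by less than the spread between replicates on the deposited normalized scale. The 10 genes had 1184 to 74406 counts per library, so 3 animals per genotype limit the precision more than counting does.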
